A study of Sus scrofa domesticus and Sus scrofa with 18 samples.

Results

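TU78568 and TU39066 are 2 long non-coding RNAs (lncRNAs) of the pig spleen, taken from the 15040 lncRNAs that the study assembled. They were chosen by their measured levels in the libraries of the domestic stages: TU78568 is the lncRNA that the study names for its differences between the stages, and TU39066 was set beside it because its level ran the other way. Their levels at the domestic stages were therefore known when they were chosen and are given here as a description, without a test. Beside them stand the protein-coding genes, among 12913, whose levels followed or opposed either lncRNA between the stages.

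The spleens came from female Rongchang pigs, a Chinese domestic breed, at 5 stages, and from Wild Boars. E55d is the fetus 55 days before birth, B0d the newborn, W30d the pig weaned for 30 days, A180d the animal of 180 days and A2Y the animal of 2 years. WB is the female Wild Boar of 2 years, so that WB and A2Y are of equal age and differ in breed and in origin. Each of the 6 groups held 3 libraries of strand-specific RNA sequencing, 1 per animal, without any treatment. All values are on the deposited scale, log2(FPKM+1), where FPKM is the number of fragments per kilobase of transcript and per unit of sequencing depth.

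A lncRNA is a transcript that is spliced and often polyadenylated like a messenger RNA but has no evident protein product, and most are found in few tissues or at few stages. The spleen changes its work during development. Before birth it is a site of blood formation, in which erythroid precursors, the nucleated forerunners of red cells, make heme and the proteins of the red cell membrane. After birth its white pulp fills with B cells and T cells, while macrophages of the red pulp take up aged red cells and recycle their iron.

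A pair of libraries stood apart most, and the results that change without them are given both ways. The second W30d library had the largest deviation from its group mean, as a root mean square over all protein-coding genes. It was 0.410 on the log2 scale against 0.162 to 0.382 in the other libraries. Its genes of red cell formation were far below those of its group: SLC4A1, the anion exchanger of the red cell membrane, was at 0.86 there and at 7.57 and 7.21 in the other W30d libraries. The third B0d library, with a deviation of 0.382, held RNA of liver genes, with ALB (albumin) at 9.05 against 0.13 and 0.45 and TF (transferrin) at 7.43 against 0.67 and 0.65 in the other B0d libraries. The WB libraries were not uniform either. ALB was at 5.54 in the third against 0.20 and 0.29 in the others, with TF at 3.09 against 2.69 and 1.21. The macrophage marker CSF1R was at 4.41 in the first WB library against 1.54 and 1.62 in the others. TLX1, a factor needed to form the spleen, was present in every library, from 2.21 to 4.28. Detected lncRNAs ranged from 10929 to 11471 per library at A180d, from 11225 to 11305 in WB and from 12905 to 13359 at A2Y. By the study's sample list, each A2Y library also had more sequence than any other library. In bulk RNA, fewer cells of a type and less RNA per cell cannot be told apart.

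TU78568 was low in the fetus and among the highest lncRNAs of the adult spleen. It was at 2.10, 1.85 and 2.09 in the 3 E55d libraries and at 3.59, 3.27 and 3.71 in the B0d libraries. At W30d it was at 3.92, 5.01 and 3.64, the high value being that of the second library, which stood apart. It reached 5.64, 6.09 and 6.22 at A180d and 5.62, 5.96 and 5.60 at A2Y. The fetal libraries lay below all others, and every A180d and A2Y library lay above every library of the 3 earlier stages.

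The mean level of TU78568 was 2.01 ± 0.14 in the fetus, 3.53 ± 0.22 in the newborn and 4.19 ± 0.72 at W30d, and then 5.98 ± 0.30 at A180d and 5.72 ± 0.20 at A2Y (SD, n = 3 each). The order of the stage means thus ran from E55d through B0d, W30d and A2Y to A180d. Neighbours in this order did not all differ beyond their spread, since the libraries of B0d and W30d overlapped, and so did those of A2Y and A180d. The step from E55d to B0d was 1.51 and that from W30d to A180d was 1.79 on the log2 scale, whereas B0d to W30d gave 0.67 and A180d to A2Y gave -0.26. Without the second W30d library, the step from B0d to W30d was 0.26 and that from W30d to A180d was 2.20. On the linear scale the group mean went from an FPKM of 3.05 at E55d to 63.1 at A180d, a ratio of 20.7. By its mean, TU78568 was the lncRNA of rank 809 at E55d and of rank 7 at A180d.

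TU39066 took the opposite course, from a moderate fetal level to nearly none at A180d. It was at 1.85, 2.02 and 1.95 in the E55d libraries and at 1.46, 1.30 and 1.30 in the B0d libraries. At W30d it was at 1.16, 0.74 and 1.09, the low value again being that of the second library. It was down to 0.10, 0.11 and 0.10 at A180d and stood at 0.44, 0.59 and 0.38 at A2Y. No library of one domestic stage overlapped with a library of another.

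The mean level of TU39066 was 1.94 ± 0.087 in the fetus, 1.35 ± 0.089 in the newborn and 0.99 ± 0.23 at W30d, and then 0.11 ± 0.0065 at A180d and 0.47 ± 0.11 at A2Y (SD, n = 3 each). The stage means were thus ordered E55d, B0d, W30d, A2Y and A180d from high to low, and each neighbour in that order was apart from the next in all libraries. The steps were -0.58 from E55d to B0d, -0.36 from B0d to W30d and -0.89 from W30d to A180d, after which the step to A2Y was 0.36. In linear FPKM the mean was 2.84 at E55d and 0.0772 at A180d, a ratio of 36.8. By its mean, TU39066 had rank 884 among lncRNAs at E55d and rank 9868 at A180d.

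The lncRNAs as a whole were also higher at A2Y than at A180d. The median change of all tested lncRNAs from A180d to A2Y was 0.26, and 35.8% of them rose by more than TU39066. From A2Y to WB the median lncRNA changed by -0.24. The part that library depth had in these changes was not tested.

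**Figure D1:**
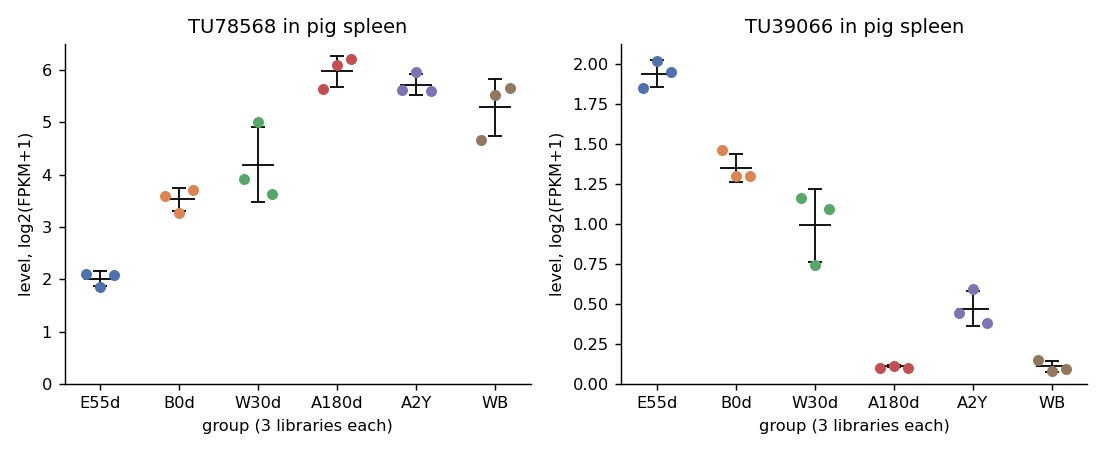
Levels of TU78568 (left) and TU39066 (right) in log2(FPKM+1) for each of the 18 libraries, as points, by group, with the group mean and SD as black bars. TU78568 has a mean of 2.01 at E55d and of 5.98 at A180d, and TU39066 one of 1.94 and of 0.11; the 2 vertical axes differ in range, and the second W30d library lies at 5.01 on the left and at 0.74 on the right.

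Of the 10 pairs of domestic stages, TU78568 had no overlap of libraries in 8 and TU39066 in 10. Among the 14129 lncRNAs tested, 7.64% had at least 8 such pairs and 0.120% had all 10, but both lncRNAs were chosen for this contrast. Their stage means were related with r = -0.99 over the 5 domestic stages and -0.97 over the 6 groups.

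Within the groups the opposition of both lncRNAs was weaker and rested on a single library. Over the deviations of the 18 libraries from their group means, Pearson's r between TU78568 and TU39066 was -0.54 and Spearman's rho was -0.35. Without the second W30d library, in which TU78568 was 0.82 above and TU39066 0.26 below the group mean (a deviation of -0.26), these were 0.03 and 0.04 over 17 libraries. The deviations had opposite signs in 10 of 18 libraries. The libraries share their depth and their FPKM scaling in both values.

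**Figure D2:**
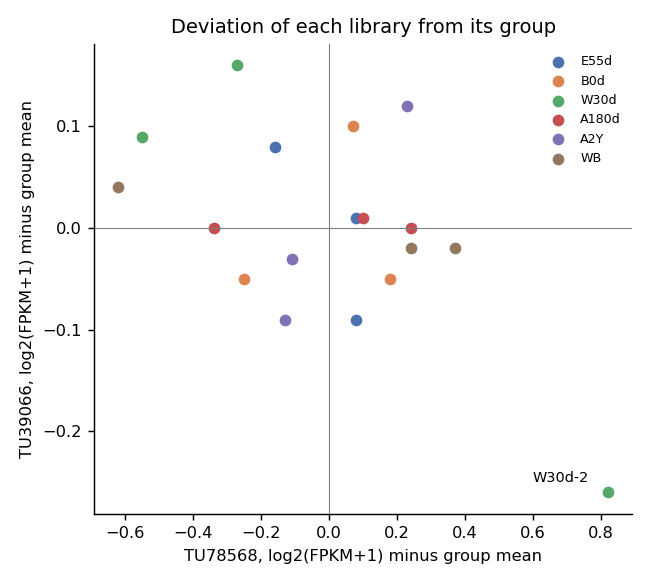
Deviation of each of the 18 libraries from its group mean, in log2(FPKM+1), for TU78568 (horizontal) and TU39066 (vertical), coloured by group. The second W30d library lies alone at 0.82 and -0.26, and the remaining 17 libraries show r = 0.03.

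The Wild Boar libraries were not used to choose the lncRNAs, and their contrasts with the adult domestic stages were tested. The domestic libraries were used for that choice. They form the other side of each contrast and enter the spread against which the test sets a difference. The p-values are therefore not independent of the choice. TU78568 was at 4.67, 5.53 and 5.66 in WB, with a mean of 5.29 ± 0.54 (SD, n = 3). These values overlapped with those of A2Y and of A180d. The difference from A2Y was -0.44 on the log2 scale (SE 0.31, 95% interval -1.10 to 0.22, limma adjusted p = 0.328), and that from A180d was -0.69 (SE 0.31, interval -1.35 to -0.03, limma adjusted p = 0.562). Neither passed the threshold of 0.05, and the intervals leave room for a lower level in WB by about 1 on the log2 scale.

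TU39066 was at 0.15, 0.08 and 0.09 in WB, with a mean of 0.11 ± 0.034 (SD, n = 3), which lay below every A2Y library and around the A180d libraries. Its difference from A2Y was -0.36 (SE 0.14, interval -0.65 to -0.08) and did not pass the threshold (limma adjusted p = 0.0684). When the second W30d library was left out of the model, the same difference passed it (SE 0.12, limma adjusted p = 0.0385). Over all alternatives the adjusted p ranged from 0.00326 to 0.464. Between A2Y and WB, 17.7% of all lncRNAs passed the test, 1.01% with a higher and 16.7% with a lower level in WB, and the libraries of 43.0% did not overlap. Against A180d, where 1.04% of lncRNAs passed, the 95% interval of the difference of TU39066 ran from -0.29 to 0.28 (limma adjusted p = 1.00). Both contrasts share the WB libraries.

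Protein-coding genes followed a lncRNA if their 5 domestic stage means correlated with its own at r of at least 0.95 and ranged over at least 1 on the log2 scale. Of 5320 genes with that range, 729 (13.7%) followed TU78568 and 296 (5.56%) took the opposite course. TU39066 was followed by 271 genes (5.09%) and opposed by 654 (12.3%). With 5 stage means such an r is common: over the 3370 lncRNAs that had the same range, the median number of genes was 86 for the same course and 87.5 for the opposite one. TU78568 had more genes of its course than 99.3% of these lncRNAs and more of the opposite course than 69.3%, and for TU39066 these shares were 84.2 and 89.1%. Both lncRNAs were chosen by these stage means, so the shares are a description.

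The genes of one lncRNA were largely the mirror of those of the other. The 549 genes that followed TU78568 and opposed TU39066 were 75.3% of the former and 83.9% of the latter set. The reverse set held 219 genes, 74.0% of those that opposed TU78568 and 80.8% of those that followed TU39066. Without the second W30d library 634 genes followed TU78568, of which 587 were among the 729, and 180 followed TU39066, of which 175 were among the 271. Without the third B0d library the numbers were 759 and 290.

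**Figure D3:**
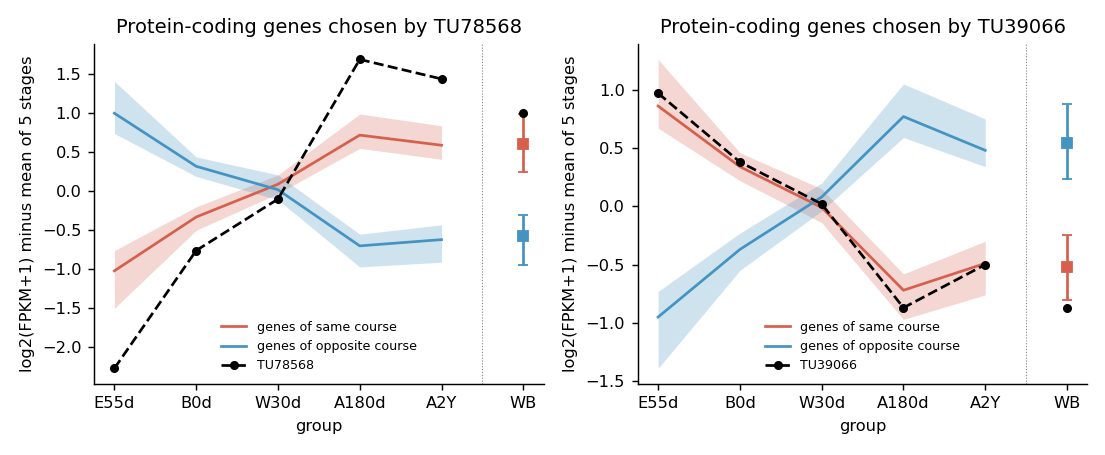
Median (line) and quartiles (band) of the protein-coding genes that took the same (red) or the opposite (blue) course as TU78568 (left) or TU39066 (right), in log2(FPKM+1) minus each gene's mean over the 5 domestic stages, with the lncRNA in black. Squares and bars at WB are medians and quartiles there; the median gene of the same course as TU78568 goes from -1.02 at E55d to 0.72 at A180d, while the lncRNA goes from -2.27 to 1.69.

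The Wild Boar libraries had no part in the choice of these genes, whereas the A2Y libraries did. In WB the genes differed from A2Y in both directions. Between A2Y and WB, 20.4% of all protein-coding genes passed the test, 10.8% higher and 9.57% lower in WB. Of the 729 genes that followed TU78568, 89 (12.2%) were higher and 89 (12.2%) were lower in WB, with a median difference of 0.02. Of the 271 genes that followed TU39066, 16 (5.90%) were higher and 15 (5.54%) were lower, with a median difference of 0.03. Without the second W30d library in the model, 47 of the 271 passed in place of 31.

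Within the groups, the correlation of the followers with their lncRNA was also much lower without that 1 library. The correlation of deviations from the group means over 18 libraries had a median of 0.29 for the genes that followed TU78568, and 79.4% of them were above 0, against a median of 0.12 and 60.7% for all protein-coding genes. Without the second W30d library the median was -0.01 and 48.8% were above 0, against 0.13 and 62.6% for all genes. For the genes that followed TU39066 the median was 0.33 with all libraries and 0.03 without that library, against -0.15 and -0.16 for all genes. Above 0 were 80.1% of these followers with all libraries and 53.5% without that library, against 32.6 and 30.5% of all genes. The followers of TU39066 thus stayed above all genes without it, whereas those of TU78568 did not. The genes that opposed TU78568 went from a median of -0.37 to 0.11, and those that opposed TU39066 from -0.38 to -0.15.

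**Figure D4:**
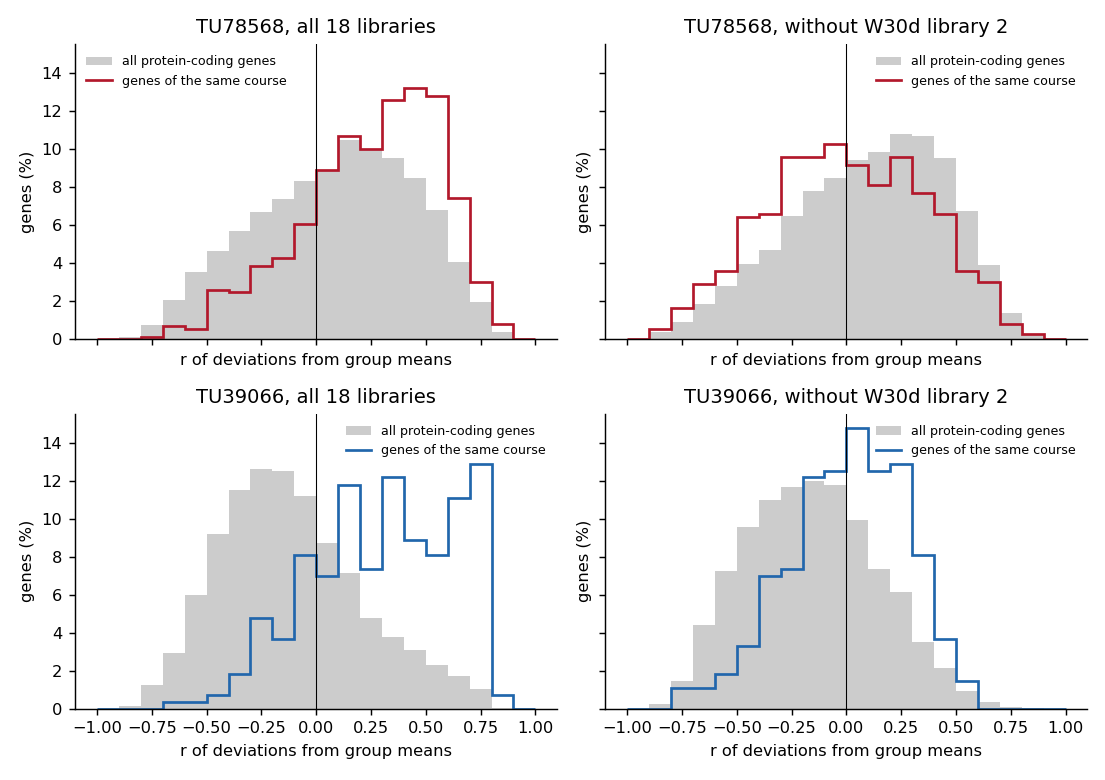
Distribution of Pearson's r between the deviations of each protein-coding gene and those of TU78568 (top) or TU39066 (bottom) from the group means, as the percent of genes per bin of r, for all genes (grey) and for genes of the same course (line). With all 18 libraries (left) the medians of the followers are 0.29 and 0.33, and without the second W30d library (right) they are -0.01 and 0.03.

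Ranked by the within-group correlation, the followers of TU78568 were led by TPST1 and ENSSSCG00000010383, and among those with a symbol ARHGAP25 and IRF5 came next after TPST1. TPST1, a Golgi enzyme that adds sulfate to tyrosines of secreted and membrane proteins, came first with a stage r of 0.97 and a within-group r of 0.89. It had a within-group r of 0.88 without the second W30d library. TPST1 was at 1.93, 1.61 and 1.96 in the E55d libraries, at 3.38, 3.20 and 3.33 at B0d and at 3.56, 4.14 and 3.38 at W30d. It stood at 4.08, 4.36 and 4.63 at A180d and at 4.27, 4.45 and 4.54 at A2Y. In WB it was at 4.66, 5.33 and 5.79, above every A2Y library, and the difference of 0.84 passed the test (SE 0.25, limma adjusted p = 0.0255). TU78568 itself differed by -0.44 in that contrast.

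IRF5, a transcription factor of the interferon response in macrophages and B cells, had a stage r of 0.97 and a within-group r of 0.84, which was 0.66 without the second W30d library. Its mean was 2.14 at E55d and 5.41 at A180d, and it was 0.93 higher in WB than at A2Y (SE 0.20, limma adjusted p = 0.00513). CRACDL had means of 0.07 at E55d, 1.66 at A2Y and 4.44 in WB. Its values of 3.88, 4.65 and 4.79 in WB lay far above the 1.61, 1.44 and 1.93 of A2Y, a difference of 2.78 (SE 0.24, limma adjusted p = 7.7e-06). Whether these differences depart from that of TU78568 was not tested.

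FASLG, NKG7 and ADGRG1, genes of killer lymphocytes, were also among the 10 nearest genes with a symbol. FASLG, the death ligand by which such cells kill their targets, was at 0.09, 0.16 and 0.00 in the E55d libraries, at 1.21, 2.30 and 1.17 at W30d and at 2.20, 3.04 and 2.81 at A180d. The middle W30d value is that of the library that stood apart, which was also the highest of the W30d libraries for TU78568. The within-group r of FASLG was 0.78, and 0.54 without that library. NKG7, a protein of the cytotoxic granules, had 0.77 and 0.45 by the same measure, with group means of 1.30 at E55d and 4.29 at A180d. ADGRG1, an adhesion receptor of cytotoxic lymphocytes, went from 1.29 to 3.23 and also opposed TU39066, with a stage r of -0.97.

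CD44, the hyaluronan receptor of migrating leukocytes, had a stage r of 1.00 with TU78568 after rounding and means of 3.09 at E55d and 5.18 at A180d. SLAMF1, a receptor of activated lymphocytes, went from 0.35 to 2.39 and was 0.91 lower in WB than at A2Y, at 1.43 against 2.35 (a difference of -0.91, SE 0.28, limma adjusted p = 0.0308). ARHGAP25, a GTPase-activating protein of blood cells, had a within-group r of 0.84, and TRIM21, an intracellular receptor for antibodies, one of 0.77. ENSSSCG00000010383, which has no symbol in the table used, was second by the within-group r, with 0.86. Its mean was 1.96 at E55d, 4.28 at A180d and 3.56 in WB, where it was lower than at A2Y (a difference of -0.61, SE 0.20, limma adjusted p = 0.0406). ARHGAP25, ADGRG1, FASLG, NKG7, TRIM21 and CD44 did not pass that test (limma adjusted p from 0.313 to 0.695). Of all protein-coding genes, 10.8% passed as higher and 9.57% as lower in WB.

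The 10 nearest genes opposed to TU78568 were picked by the most negative within-group r. Among them were LOX and COL3A1 of the connective tissue, CDON, and FECH and ICAM4 of red cells. LOX, the enzyme that cross-links collagen, was at 3.57, 3.51 and 3.62 in the E55d libraries and at 1.53, 1.08 and 0.99 at A180d. Its within-group r was -0.81, and -0.90 without the second W30d library. As LOX was picked by that r, the values are a description. Over all 296 genes opposed to TU78568 the median went from -0.37 to 0.11 without that library. CDON, a cell surface receptor of the hedgehog pathway, likewise had -0.82 with and -0.83 without it. COL3A1, the collagen of reticular fibres, had -0.76 and -0.62. In WB, the first library had the lowest TU78568, at 4.67, and the highest LOX and CDON, at 2.43 and 2.42, against 1.46 and 1.33 in the second and 1.48 and 1.01 in the third library.

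MEST, an imprinted gene of fetal tissues, had a mean of 1.34 in the fetus and 0.22 at A180d. CDC7, a kinase that starts DNA replication, went from 3.54 to 1.88, and SERINC2, a membrane protein, from 4.29 to 0.53. As these genes were chosen by their stage means and their within-group r, the values are a description. FECH, which inserts iron into heme, and ICAM4, a blood group protein of the red cell, had a stage r with TU78568 that rounds to -1. FECH was at 7.71, 7.49 and 7.19 in the E55d libraries and at 6.64, 2.97 and 6.18 at W30d. It had reached 3.25, 3.40 and 2.84 at A180d, so that the second W30d library lay with the adult ones.

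The 10 followers nearest to TU39066 included EPOR, ABCB6 and ABCB10, which serve red cell formation. TMEM63B, an osmosensitive ion channel, was at 2.96, 2.79 and 2.61 in the E55d libraries and at 1.16, 1.02 and 1.05 at A180d, with a within-group r of 0.81 and of 0.35 without the second W30d library. ENSSSCG00000025579, without a symbol in the table used, led with 0.82 and 0.53, and its mean was 4.82 at E55d and 1.83 at A180d. EPOR, the receptor for erythropoietin, the hormone that drives red cell formation, was at 4.44, 4.20 and 4.25 at E55d, at 4.17, 1.14 and 3.64 at W30d and at 1.99, 2.06 and 1.38 at A180d. Again the second W30d library lay below the adult ones, and the within-group r of 0.77 was 0.26 without it.

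ABCB10, a mitochondrial transporter needed for heme synthesis, had a mean of 6.59 in the fetus and 2.57 at A180d, and ABCB6, a porphyrin transporter, had 4.47 and 1.01. Their within-group r with TU39066 was 0.76 and 0.78, and 0.18 for each without the second W30d library. RNF123, a ubiquitin ligase, went from 3.55 to 1.34 and GAB1, an adaptor of receptor signalling, from 2.79 to 0.65. PIP5K1B, a lipid kinase, was at 3.15 at E55d, 0.55 at A180d and 0.86 at A2Y, with the same turn between the last stages as TU39066. TEX14, a protein known from germ cell bridges, TIAM2, an activator of the GTPase Rac, and CRACD, a regulator of actin capping, had within-group r of 0.79, 0.79 and 0.76, which were 0.25, 0.24 and 0.15 without that library.

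The 10 genes named here as opposed to TU39066 were picked by the most negative within-group r, so strong values were built in by that choice. Over all 654 opposed genes the median without the library that stood apart was -0.15, against -0.16 for all protein-coding genes. LAT2, an adaptor of B cell and mast cell receptors, had a within-group r of -0.85 with all libraries and -0.65 without that library. SHFL, an interferon-induced antiviral protein, had -0.85 and -0.78. LAT2 was at 2.68, 2.47 and 2.47 in the E55d libraries and at 5.95, 5.79 and 5.93 at A180d. CD96, a receptor of T cells and NK cells, had -0.79 and -0.63, and its mean was 0.44 in the fetus and 5.09 at A180d. BIN1, a protein of membrane curvature, TREX1, a DNA-degrading enzyme, and PRKCH, a kinase of T cells, had -0.56, -0.57 and -0.52 without that library. CYB561D2 (-0.59), PPP1R16B (-0.43) and SEPTIN1 (-0.30) completed the 10 genes, with ADGRG1 at -0.43. BIN1 was 0.68 lower in WB than at A2Y (a difference of -0.68, SE 0.23, limma adjusted p = 0.0420), and the other 9 did not pass that test.

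Lists of genes of cell types and processes were counted next. From E55d to A180d, 57.9% of all protein-coding genes passed the test, 33.1% higher and 24.7% lower, and the median over all of them was 0.11. As these are stages on which the lncRNAs were chosen, the counts describe which genes went along with them. The 3 B cell markers reported rose (CD79B, MS4A1, CD22), by a median of 3.26, and all 3 followed TU78568 and opposed TU39066. MS4A1, the B cell surface protein CD20, was at 2.49, 2.18 and 2.39 in the fetal libraries and at 5.43, 5.67 and 5.75 at A180d.

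All 4 T cell markers rose (CD3D, CD2, CD5, LCK), by a median of 5.29, of which 3 followed TU78568. Of 7 genes of B cell receptor signalling all rose and 4 followed TU78568, among them the kinase SYK and the adaptor BLNK. Of 5 genes of T cell receptor signalling all rose and 3 followed it. All 7 genes of cytotoxic cells rose, by a median of 2.99, and 5 followed TU78568, among them PRF1 (perforin), with means of 0.10 at E55d and 3.06 at A180d. The single NK cell marker measured, NKG7, rose and followed it too.

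The macrophages of the red pulp had 6 measured markers. All 6 rose from E55d to A180d, by a median of 3.15, and 0 of 6 followed TU78568, beside 13.7% of all genes with the required range. SPIC, the factor that directs these macrophages, had means of 3.47 in the fetus, 6.94 in the newborn and 6.90 at A180d, and MARCO, a scavenger receptor, was at 2.67, 7.88 and 7.80. VCAM1, an adhesion molecule of red pulp macrophages, had the closest stage r to TU78568 together with CD68, 0.93 each.

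Red cell genes went the other way. Of 7 genes of the red cell membrane all fell, by a median of -3.49, and 4 followed TU39066 while 5 opposed TU78568. In the fetal libraries SLC4A1 was at 8.07, 7.90 and 7.63, and it was at 6.75, 6.84 and 5.64 at B0d and at 0.67, 1.01 and 0.73 at A180d. RHAG, an ammonium channel of the red cell, was at 6.84, 0.61 and 6.33 at W30d and at 0.58, 0.59 and 0.33 at A180d. Of 7 genes of heme synthesis 6 fell, by a list median of -2.98, and 3 followed TU39066 while 4 opposed TU78568. The exception was ALAS1, the housekeeping form of the first enzyme, at 1.94 at E55d and 2.31 at A180d. Of the erythroid markers EPOR and SLC4A1 fell, and HBB, the beta chain of hemoglobin, was listed at 0 in 3 of 18 libraries and cannot be read.

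Genes of proliferation were counted in the same way. All 4 markers of cycling cells and 8 of 9 genes of DNA replication fell from E55d to A180d, by medians of -1.78 and -1.59. Of these 13 genes CDC7 alone followed TU39066, a share near the 5.09% of all genes with the required range. TOP2A, the topoisomerase of dividing cells, had means of 5.89 in the fetus, 4.71 in the newborn and 5.95 at W30d, and so a second high that TU39066 lacked. Of the other lists, 2 of 3 stroma genes fell, 1 of 2 granulocyte genes rose and 1 of 3 liver genes rose. No marker of megakaryocytes or of the pancreas was measured under a symbol.

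These directions depended on the scale for some lists. When each library was scaled by its lncRNAs, the median over all protein-coding genes for A180d minus E55d moved from 0.11 to 1.20. Limma then called 9760 of 12913 genes higher and 536 lower at A180d. The lymphoid and macrophage lists then rose in all members as before, and 6 of 7 red cell membrane genes and 4 of 7 heme synthesis genes still fell, with 1 heme synthesis gene higher. Of the cycling genes limma then called 0 of 4, also with 0 at an unadjusted p under 0.05, and of the DNA replication genes 1 higher and 0 lower (medians -0.42 and -0.21). Of the stroma genes 1 was then higher and 0 lower. Scaling by protein-coding genes gave the same counts as the deposited scale for the red cell, lymphoid and macrophage lists.

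**Figure D5:**
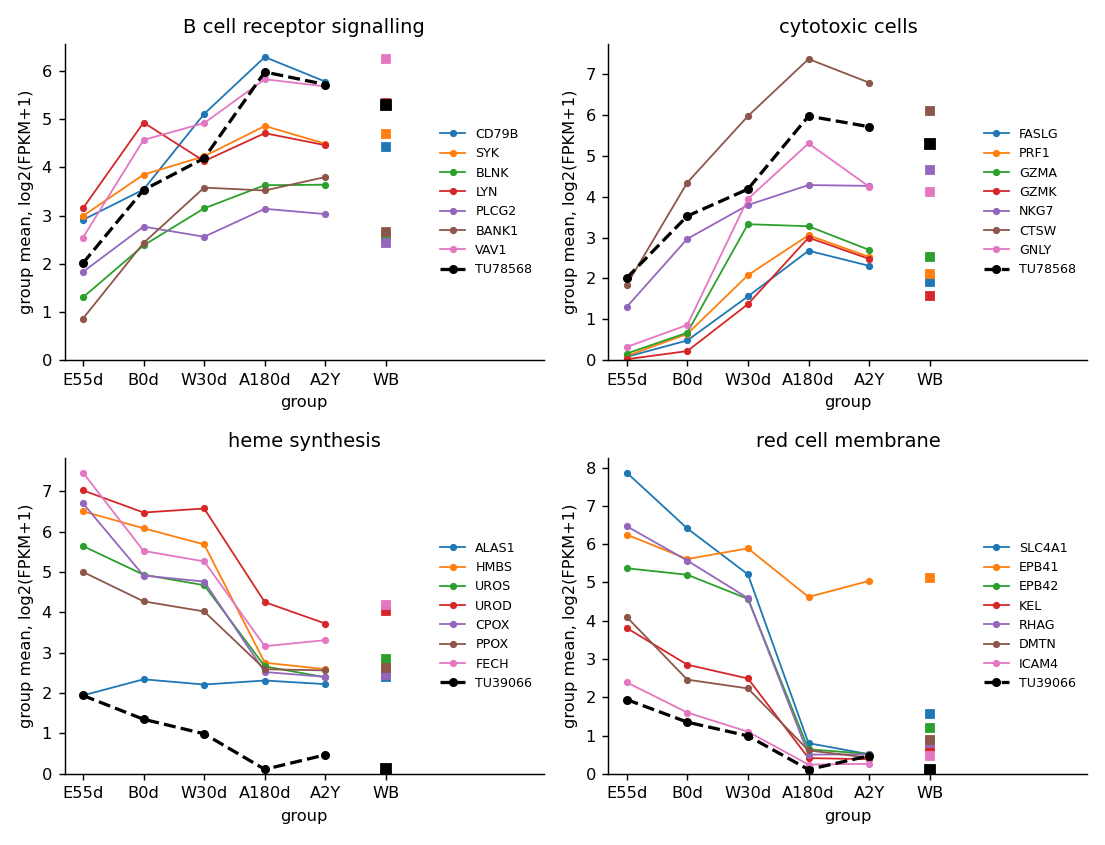
Group means in log2(FPKM+1) of the reported genes of 4 lists over the 5 domestic stages (lines) and in WB (squares), with TU78568 (top panels) or TU39066 (bottom panels) in black. The B cell receptor and cytotoxic genes rise from E55d to A180d with TU78568, and the heme synthesis and red cell membrane genes, ALAS1 apart, fall with TU39066; scaling by lncRNAs leaves 4 of 7 and 6 of 7 of the latter calls.

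In the second W30d library, the red cell lists were low and the cytotoxic and T cell lists high by their medians, while TU39066 was low and TU78568 high. Relative to the mean of the other W30d libraries, its heme synthesis genes had a median of -3.44, its red cell membrane genes -3.39, its cytotoxic genes 1.51, its T cell markers 0.89 and its B cell markers 0.22, against 0.05 over all protein-coding genes. Of the B cell markers, CD79B was at 5.26 against 5.47 and 4.61 and MS4A1 at 5.04 against 5.08 and 4.59, within the other W30d libraries. CD22 lay above them, at 3.91 against 3.08 and 2.80. The T cell marker CD3D was at 5.95 against 4.66 and 5.99. In that library TU78568 was 5.01 against 3.92 and 3.64 and TU39066 was 0.74 against 1.16 and 1.09. The part of cell composition in these values was not tested.

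In the model of all libraries, 10.8% of all protein-coding genes passed as higher and 9.57% as lower in WB than at A2Y. Without the second W30d library, 1536 of 12913 passed as higher and 1447 as lower. All 3 B cell markers reported were lower in WB than at A2Y, by a median of -1.36. So were 2 of 4 T cell markers and 4 of 7 genes of B cell receptor signalling. Of the 4 genes of B cell receptor signalling that followed TU78568, CD79B and BLNK were among the lower ones, while SYK differed by 0.20 and VAV1 by 0.57 and did not pass. VAV1 and LYN passed as higher in WB without the second W30d library (limma adjusted p = 0.0425 and 0.0380), so that this list had 2 higher and 4 lower. MS4A1 lay between 3.80 and 4.05 in the 3 WB libraries and between 5.80 and 6.08 in those of A2Y (a difference of -1.96, SE 0.19, limma adjusted p = 2.4e-05). Of 7 cytotoxic genes limma called 0, with 1 at an unadjusted p under 0.05 (2 were lower without the second W30d library), and 2 of 6 macrophage markers were higher in WB, C1QA, a complement component, by 1.23 (SE 0.21, limma adjusted p = 0.00107) and VCAM1 by 0.83 (SE 0.21, limma adjusted p = 0.0120). Of the proliferation genes, TOP2A (a difference of -1.57, SE 0.39, limma adjusted p = 0.0117) and 2 of 9 DNA replication genes were lower in WB, and without the second W30d library 3 of 4 cycling markers were. TU78568 differed by -0.44 in the same contrast, and whether its difference departs from that of the B cell genes was not tested.

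When the libraries were scaled by their lncRNAs, the median of all protein-coding genes in this contrast moved from 0.01 to 0.86. Limma then called 9096 of 12913 genes higher and 41 lower in WB. Then 1 of 3 B cell markers was lower, 0 of 4 T cell markers passed (limma, also 0 at an unadjusted p under 0.05), 3 of 7 B cell receptor genes and 5 of 6 macrophage markers were higher in WB. Of the cycling markers 0 of 4 then passed (limma, also 0 at an unadjusted p under 0.05), and of the DNA replication genes 1 was higher and 0 lower. The difference of TU78568 also changed sign to 0.68 (SE 0.27, limma adjusted p = 0.152).

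Of 3 erythroid markers, 7 heme synthesis genes and 7 red cell membrane genes, limma called 0 between A2Y and WB in the model of all libraries, also with 0 at an unadjusted p under 0.05. EPOR was 0.99 higher in WB (SE 0.53, limma adjusted p = 0.193) and SLC4A1 1.05 higher (SE 1.1, limma adjusted p = 0.545). Without the second W30d library, whose deviation enters the shared estimate of the spread, the same differences passed, with SE 0.27 and limma adjusted p = 0.0155 for EPOR and SE 0.34 and limma adjusted p = 0.0353 for SLC4A1. FECH passed as well (0.87, SE 0.27, limma adjusted p = 0.0314). In that model TU39066 was lower in WB, so that these 3 genes and the lncRNA differed from A2Y in opposite directions.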

How the data were processed

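The 18 strand-specific libraries were sequenced by the authors as paired reads of 150 bases. Per the labels and the methods, they were mapped with TopHat to Sscrofa 10.2 with replaced sex chromosomes, and transcripts were assembled and quantified with StringTie 1.3.3, Cuffcompare of Cufflinks 2.2.1 serving to remove annotated transcripts. The authors deposited log2 values, log2(FPKM+1), for 15040 lncRNAs and 12913 protein-coding genes. Empty cells (52256, all in the lncRNA table) were taken as 0. Read counts were not used here, so the depth behind a value is unknown and no counting interval is given. The E55d columns carry the numbers 1, 5 and 6, which do not match the sample titles, so they were used as libraries of that stage without a replicate number.

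Features with FPKM above 0.1 in at least 3 libraries were tested (14129 lncRNAs, 12913 genes) with limma 3.58.1 in R 4.3.3, in 1 model of 6 groups with a mean-variance trend, and p-values were adjusted by Benjamini-Hochberg over all features of a table (threshold 0.05). P-values set a difference against the spread between animals within groups, with 1 estimate per feature shared by all 6 groups. In simulated data for WB minus A2Y, of features with a log2 change of 1 the test recovered 84.0% for lncRNAs and 74.0% for genes, 5.64 and 6.59% of calls being false. The simulated features varied independently, with equal spread in all groups, rises only and no library that stood apart. These rates therefore need not hold for the measured libraries. Replicate numbers did not pair the libraries: same-numbered libraries of A2Y and WB had r from -0.01 to 0.09 over lncRNAs and from -0.07 to 0.12 over genes, and those of A180d and WB from -0.15 to 0.13 over genes. No 2 libraries were identical. Correlations were computed with Python 3.11.15, numpy 2.4.6 and pandas 2.3.3, and figures with matplotlib 3.10.9.

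The members, the gene lists and the followers' rule were chosen with earlier results of these data known. Symbols were found for 8215 identifiers (63.6%). Below a share of 80% the naming rule allowed 2 followers per lncRNA, those with the largest within-group r (TPST1, ENSSSCG00000010383, ENSSSCG00000025579 and TMEM63B). The naming of 10 followers and 10 opposed genes with a symbol, and of the gene lists, was added after values were seen, as were 6 of the lists: heme synthesis, red cell membrane, B and T cell receptor signalling, cytotoxic cells and DNA replication. Alternatives were other scalings, filters, pseudocounts, thresholds and models, and each library left out. Sequences and positions of the lncRNAs were not used here. A gene of the B cell lists is not reported here and was left out of their counts and medians.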

Additional observations from a re-analysis of the deposited data

How the results depend on the processing

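Of 301 values recomputed under alternatives, 251 kept their direction and side of the threshold or stayed near the first value, 42 moved, 4 reversed and 4 came to pass the test. The cause was not tested. WB minus A2Y: for TU78568, scaling by lncRNAs gave 0.68. For TU39066, the difference passed with a pseudocount of 0.1 (-1.45, limma adjusted p = 0.00326), a filter of FPKM above 1 (-0.36, limma adjusted p = 0.0478), no trend (-0.36, limma adjusted p = 0.0378) and, chosen after seeing the data, without the second W30d library (-0.36, limma adjusted p = 0.0385). Leaving out libraries gave -0.62 to -0.13 for TU78568 and -0.41 to -0.30 for TU39066. Against A180d these ranges were -0.88 to -0.38 and -0.02 to 0.01, and in the last the sign turned without A180d library 2 (0.00248), WB library 2 or WB library 3 (0.01 each).

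The 2504 lncRNAs that passed between A2Y and WB became 3820 with a pseudocount of 0.1, 1155 scaled by lncRNAs, 1484 with only the compared groups, and 1064 (without A2Y library 2) to 3095 with a library left out; without A2Y library 3, WB library 1, 2 or 3 they were 1631, 1353, 1191 and 1390. With the replicate number as a block limma called 0 of 14129 lncRNAs, 4418 having an unadjusted p under 0.05. The block gave 1453 protein-coding genes in place of 2631, and TU78568 and TU39066 kept -0.44 and -0.36 (limma adjusted p = 0.302 and 0.127). The samples share only a number: 2 of 3 pairs correlated best with their own number over lncRNAs. Protein-coding genes were 9137 scaled by lncRNAs, 1401 with only the compared groups, 1512 (without A2Y library 1) to 2268 with an A2Y or WB library left out and 2983 without the second W30d library. Followers that passed were 539 of TU78568 (178 at first) and 154 of TU39066 (31 at first) scaled by lncRNAs, 115 to 155 and 13 to 26 with a library left out (both lowest without A2Y library 1; for TU39066 also 17, 20 and 19 without A2Y library 3, WB library 2 and WB library 3), and 211 and 47 without the second W30d library.

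Genes that followed TU78568 were 1348 at r of at least 0.9, 77 at 0.99, 376 with WB as the sixth group, 402 on linear FPKM and 581 to 827 with a library left out. For TU39066 they were 601, 21 and 180 (without the second W30d library) to 335. Within-group medians ranged from -0.01 to 0.35 for followers of TU78568, from 0.03 to 0.41 for those of TU39066 and from -0.67 to 0.03 between both lncRNAs, the ends nearest 0 being those without the second W30d library.

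Steps that moved beyond their spread: TU78568 from E55d to B0d 1.76 (pseudocount 0.1) and 1.31 (scaled by lncRNAs), from W30d to A180d 2.83 and, for the last step, -1.53 (both scaled by lncRNAs). TU39066 from E55d to B0d -0.83 (pseudocount 0.1) and -0.72 (scaled by protein-coding genes), from B0d to W30d -0.62 (pseudocount 0.1) and -0.02 (scaled by lncRNAs), from W30d to A180d -2.60 (pseudocount 0.1) and, for the last step, 1.44 (pseudocount 0.1) and 0.17 (scaled by lncRNAs). With a library left out the steps, in order of stage, ranged for TU78568 from 1.42 to 1.64, 0.26 to 0.94, 1.52 to 2.20 and -0.43 to -0.14, and for TU39066 from -0.64 to -0.54, -0.44 to -0.23, -1.01 to -0.80 and 0.30 to 0.41. Values are FPKM without read counts, so low levels such as that of TU39066 at A180d have no known counting error.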
